A study of Mus musculus with 6 samples.

Results

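The genes described here are those that build, cap, cut and move along actin filaments: the Arp2/3 complex and the factors that switch it on, formins, capping protein, coronins, cofilins, profilins, thymosins, tropomyosins, unconventional myosins and myosin light chains. They were taken by symbol, from the name stems Arpc, Actr, Capz, Coro, Cfl, Pfn, Tmsb, Tpm, Myo, Myl, Diap, Fmnl and Was or Wasf followed by a number, and by no measured value. The stems found 86 of the 35237 genes in the Cufflinks table and 90 of the 36536 entries in the ALEXA-Seq table. RNA-Seq libraries were compared from bone marrow derived monocytes (BMDM), sorted as CD11b+ CD45high CD115+ Ly6G- cells, and from brainstem microglia (BSM), sorted as CD11b+ CD45low CD115low Ly6G- cells, both from C57BL/6 mice of 6 weeks. Each cell type had 3 libraries, each from a separately collected set of pooled animals, and the labels give replicate 1 of both types as male and replicates 2 and 3 as female. The tissue was dissociated and enriched on a Percoll gradient before the sort.

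Actin filaments grow from monomers that thymosins hold in reserve and profilins hand over. The Arp2/3 complex starts new filaments as branches on old ones when a protein of the WASP or WAVE family activates it, formins start and extend unbranched filaments, and capping protein stops growth at the fast growing end. Cofilins cut old filaments, coronins take branches apart, tropomyosins coat filaments and set which partners bind, and myosins pull on them. Monocytes use this machinery to crawl and to leave the blood, and microglia use it to extend and retract their processes.

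Promoters of 74 of the 86 members were present in the RefSeq table of build GRCm38.p6, and the 250 bases before the start were searched on both strands for the CArG box, the site of serum response factor, a regulator of many actin genes, and for AGGAAGT, a site of the ETS factors that include the myeloid factor PU.1. The search windows are shown for 4 tested members that hold a match, in capitals, so that the letters behind the counts can be seen. Each was called different between the cell types, Myo1e higher in BSM and the others higher in BMDM. Arpc4 (chr6:113377863-113378112, plus strand) and Myo1e (chr9:70207100-70207349, plus strand) hold a CArG box, and Fmnl1 (chr11:103170888-103171137, plus strand) and Was (chrX:8090492-8090741, minus strand) hold AGGAAGT in its reverse complement, ACTTCCT.
Arpc4: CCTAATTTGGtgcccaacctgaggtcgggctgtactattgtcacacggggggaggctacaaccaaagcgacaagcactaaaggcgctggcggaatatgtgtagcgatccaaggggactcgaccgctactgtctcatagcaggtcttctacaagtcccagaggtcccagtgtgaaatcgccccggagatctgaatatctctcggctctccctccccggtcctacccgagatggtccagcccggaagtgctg
Myo1e: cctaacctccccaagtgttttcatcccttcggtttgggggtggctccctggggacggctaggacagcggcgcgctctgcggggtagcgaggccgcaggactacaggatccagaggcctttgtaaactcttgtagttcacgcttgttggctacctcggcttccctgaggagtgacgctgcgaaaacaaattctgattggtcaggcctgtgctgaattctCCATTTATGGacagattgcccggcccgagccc
Fmnl1: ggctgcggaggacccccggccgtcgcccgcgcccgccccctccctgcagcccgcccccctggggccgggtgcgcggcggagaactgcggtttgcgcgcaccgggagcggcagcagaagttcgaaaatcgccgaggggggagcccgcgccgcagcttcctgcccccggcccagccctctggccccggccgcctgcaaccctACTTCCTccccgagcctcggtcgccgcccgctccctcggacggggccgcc
Was: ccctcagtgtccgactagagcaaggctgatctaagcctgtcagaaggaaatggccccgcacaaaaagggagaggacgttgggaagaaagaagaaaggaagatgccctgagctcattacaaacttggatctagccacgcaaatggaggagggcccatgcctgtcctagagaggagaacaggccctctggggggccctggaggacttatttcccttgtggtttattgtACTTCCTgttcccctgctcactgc
A CArG box was found in 2 of the 42 tested members with a promoter (4.76%), Arpc4 and Myo1e, and in 1.34% of the 4165 tested genes with one. AGGAAGT was found in 4 of the 42 members (9.52%), Capza1, Diaph2 (Diap2 in the files), Fmnl1 and Was, against 10.2% of tested genes. Among members of low level, Myl3, Myl7 and Myl9 also held a CArG box. A match is a run of letters and not a bound site.

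Marker genes placed the libraries with their labels. The summed FPKM of 6 monocyte genes lay between 482 and 498 in BMDM and between 132 and 335 in BSM, where only Csf1r and Itgam reached 3 FPKM. Ccr2, Clec12a, Fn1 and Ly6c2 were higher in each BMDM library. Csf1r went the other way, at 19.1, 21.3 and 21.2 FPKM in BMDM and 158, 131 and 102 in BSM. Itgam overlapped, with BSM replicate 1 (176) above all BMDM libraries. The sum of 6 microglial genes lay between 17.8 and 20.5 in BMDM and between 987 and 1155 in BSM. Itgam, the CD11b gene used in the sort, was listed at 0 in BSM replicate 2, so an exact 0 in this table does not show that a gene was silent. Of 6 granulocyte genes, 5 (Camp, Elane, Ltf, Mpo and Ngp) reached 3 FPKM in BMDM, with sums of 45.6, 324 and 81.8 in the 3 libraries, and the list stayed between 0 and 0.0714 in BSM. Of 4 erythroid genes, Hba-a1 and Hbb-b1 reached 3 FPKM in BMDM, with sums of 6.77, 38.4 and 6.86 against at most 0.158 in BSM. The astrocyte list summed to 9.51, 5.301 and 6.87 FPKM in BSM, nearly all from Slc1a3, with Aqp4, Gfap and Aldh1l1 below 3 FPKM, and to at most 0.0922 in BMDM. The 8 genes of smooth muscle and pericytes, which carry a large actin machinery of their own, summed to at most 0.776 FPKM in BMDM and 1.31 in BSM, and the 4 skeletal muscle genes in the table to at most 2.298 and 0.154. The oligodendrocyte list lay between 5.58 and 8.62 FPKM in BMDM, where Mbp alone reached 3 FPKM, and between 0.927 and 1.21 in BSM, and the endothelial, neuronal and lymphocyte lists summed to at most 3.16 FPKM in any library. The part of these other cells in the results was not tested. In pooled cells, fewer cells that express a gene and less of its RNA in each cell cannot be told apart.

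BSM replicate 1 stood apart. On log2(FPKM + 1), 10 of the 46 tested members lay more than 1 unit from both other BSM libraries in it, with Arpc3, Arpc4, Myo1c and Tpm4 above and Arpc2, Arpc5l, Cfl2, Coro1b, Tmsb4x and Tpm1 below. Of all 6364 tested genes, 8.8% lay above and 16.7% below in this library. In each of the other 5 libraries no tested member lay that far out. The study's own sample sheet lists this library's RNA as the most dilute and with by far the lowest RNA integrity number. The part of the amount or integrity of the RNA in this was not tested, and values without this library are given where they change a call.

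Of the 86 members, 46 reached 3 FPKM in at least 1 library and were tested, 7 peaked between 1 and 3 FPKM, 24 stayed above 0 and under 1 FPKM, and 9 were listed at 0 in every library (Capza3, Myl10, Myl3, Myl4, Myl7, Myo7b, Pfn3, Pfn4 and Tmsb15a). FPKM count fragments relative to transcript length and library depth, and differences are log2 fold changes, BMDM minus BSM, on log2(FPKM + 1), which understates the change of low genes. Among the tested members, 35 (76.1%) passed a limma adjusted p of 0.05, against 54.5% of all genes tested. BMDM was higher for 31 members (background 45.3%) and BSM for 4 (background 9.22%), among them Fmnl2, Fmnl3 and Myo1e. The values of the cell types did not overlap for 37 members, against 66.8% of all genes, with 33 higher in BMDM (background 55.2%) and 4 in BSM (background 11.6%). The median log2 fold change was 1.36 over the members and 0.81 over all genes, and 33 of the 46 members lay above the latter.

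The positive median of all genes changed with the scaling. FPKM of all genes summed to 163199, 194184 and 173493 in BMDM and to 69146, 75021 and 68288 in BSM, more in each BMDM library. Whether these sums differ by scale or by RNA content was not tested. Quantile normalization gives every library the same distribution, which by itself brings the cell types level. It took the median of all genes to 0.02 and that of the members to 0.59. It left 18 members higher in BMDM (39.1% of those tested, background 21.7%) and 5 higher in BSM (10.9%, background 19.3%), 23 in all (background 40.9%). Upper quartile scaling left 24 calls (background 38.2%), 19 toward BMDM (background 21.7%) and 5 toward BSM (background 16.5%), and scaling to the same sum left 26 (background 40.1%), 17 toward BMDM (background 15.3%) and 9 toward BSM (background 24.9%). After quantile normalization the 18 were all among the 31 and the 5 were the same 4 with Capza2 added. At the same sum Capza2, Myo18a, Myo9a, Tpm3 and Wasf2 were called higher in BSM as well. Of the 46 tested members, 15 reached 3 FPKM only in BMDM and 3 only in BSM (Fmnl3 and Myo1e among them), so that a difference was part of how they entered the test, and all 18 were called. Of all genes of those 2 kinds, 74.8% of 2124 were called toward BMDM and 49.2% of 783 toward BSM. Of the 28 that reached it in both cell types, 16 were higher in BMDM, 1 (Fmnl2) was higher in BSM and 11 did not pass, against 37.4% and 5.84% of the 3457 genes of that kind. After quantile normalization these numbers were 11 and 2, where 21.7% and 19.3% of all genes tested were called. The share among genes of that kind is not given here.

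**Figure D1:**
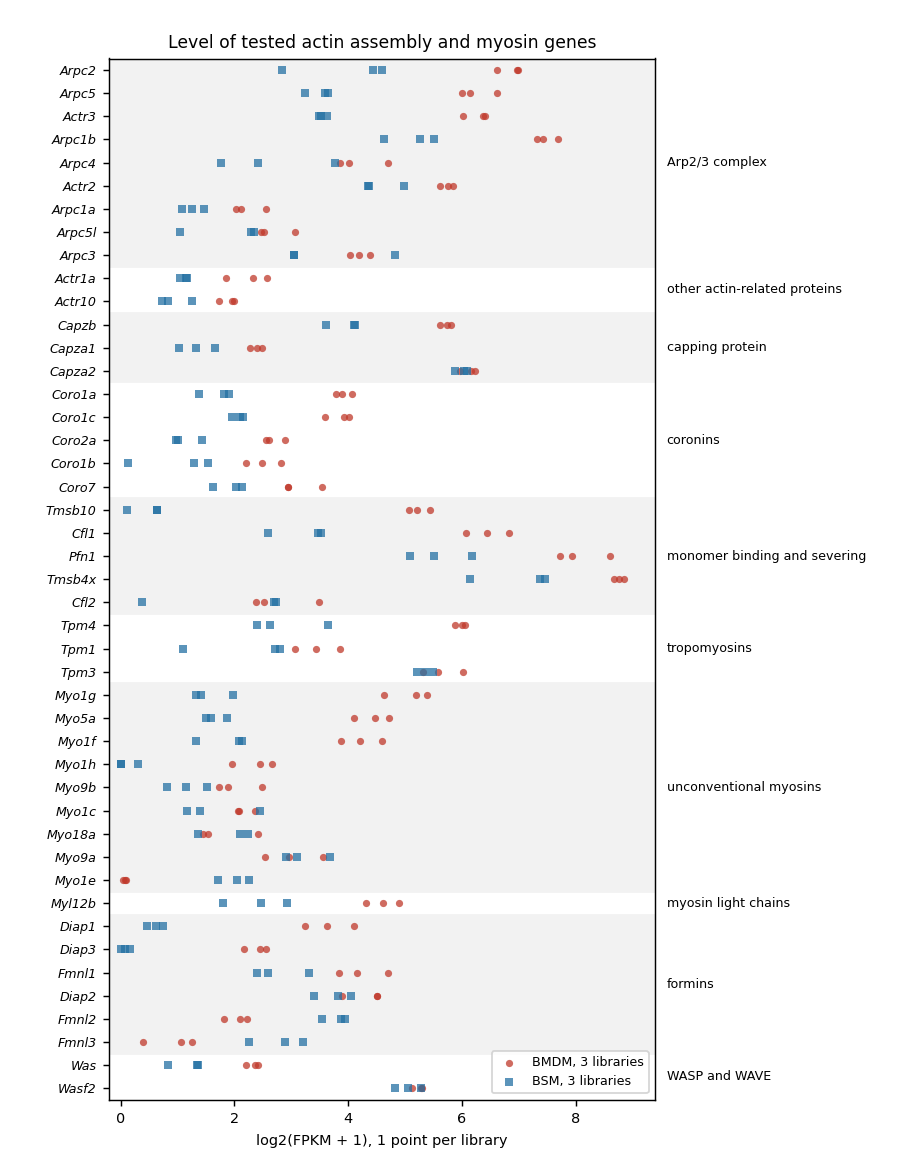
Level of 45 of the 46 tested members by role. The horizontal axis is log2(FPKM + 1), circles are the 3 BMDM libraries and squares the 3 BSM libraries. The Arp2/3 subunits Arpc2, Arpc5, Actr3 and Arpc1b separate widely, Capza2, Tpm3 and Wasf2 overlap, and Myo1e, Fmnl2 and Fmnl3 are the members shown whose squares all lie to the right of the circles.

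**Figure D2:**
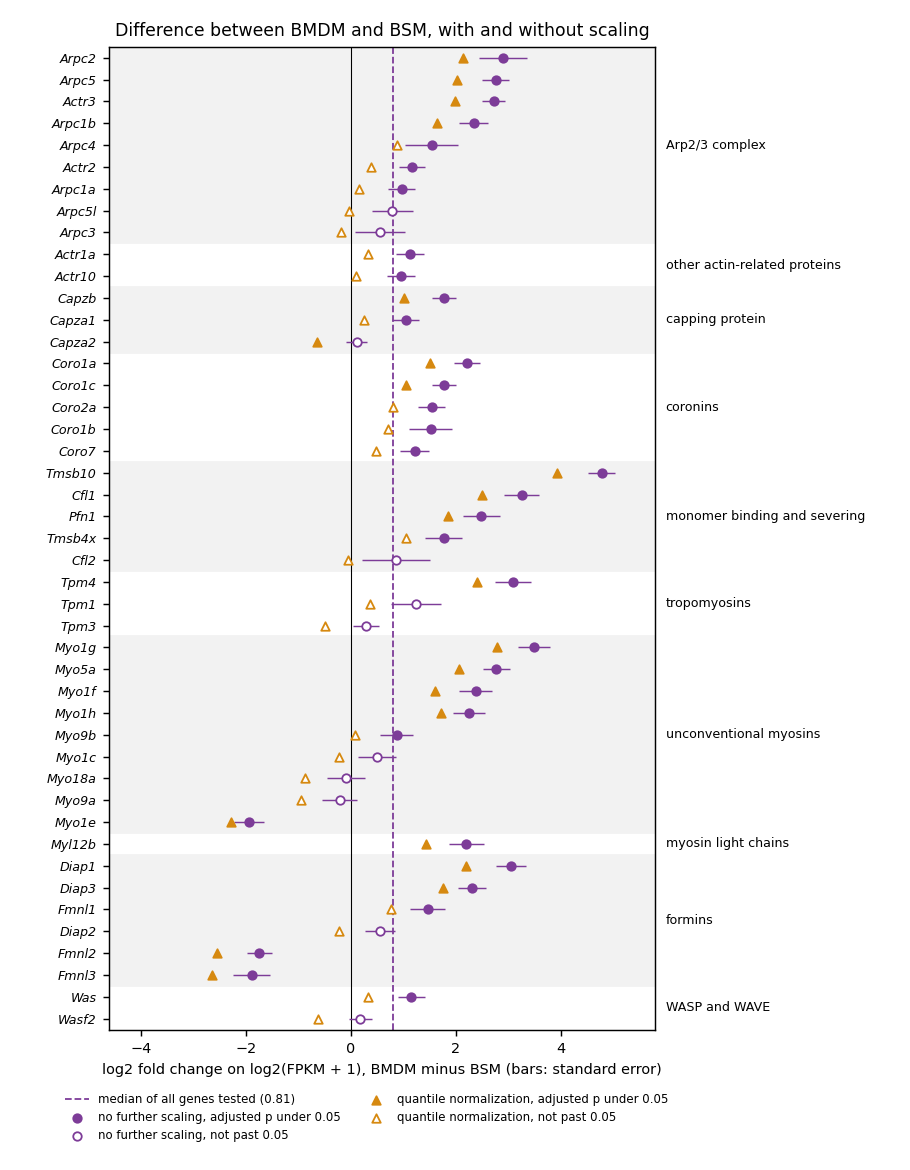
Difference between the cell types for the same 45 members. Circles with bars are log2 fold changes (BMDM minus BSM, ± SE) on log2(FPKM + 1), triangles are the same after quantile normalization, and filled symbols passed a limma adjusted p of 0.05. The dashed line is the median of all genes tested (0.81), and all triangles sit to the left of their circles.

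The Arp2/3 complex was expressed in both cell types and was higher in BMDM for 7 of its 9 tested subunits (background 45.3%). The FPKM of the group summed to 545 ± 59.6 in BMDM and 121 ± 23.2 in BSM (mean ± SD, n = 3 each, as for all means below), a ratio of 4.5. The sum over all genes was also higher in each BMDM library, and group sums were not scaled for it. Arpc1b, a subunit of the blood lineage form of the complex, was the most abundant by FPKM, at 159, 172 and 205 FPKM in BMDM and 44.4, 37.4 and 23.9 in BSM. The ranges did not meet, and the log2 fold change was 2.34 ± 0.28 (SE, limma adjusted p = 0.00036). By ALEXA-Seq the means of Arpc2 and Actr3 were above that of Arpc1b, with 1761 and 1472 against 830 in BMDM and 278 and 234 against 185 in BSM. Arpc2, one of the 2 subunits that hold the complex on the mother filament, was at 96.9, 124 and 126 FPKM in BMDM and 6.11, 23.3 and 20.6 in BSM (chr1:74283071-74314783, mm9). Every BMDM library lay well above every BSM library, of which replicate 1 was the lowest, and the log2 fold change was 2.90 ± 0.46 (SE, limma adjusted p = 0.00144), or 2.34 without BSM replicate 1. Actr3, which with Actr2 forms the first pair of the new filament, held 64.3, 81.5 and 83.7 FPKM in BMDM against 10.5, 10.2 and 11.4 in BSM, with a log2 fold change of 2.72 ± 0.22 (SE, limma adjusted p = 5.2e-05). Its partner Actr2 was nearer, with 47.9, 56.1 and 53.1 FPKM in BMDM and 30.7, 19.6 and 19.3 in BSM, still apart. Its difference was 1.17 ± 0.25 (SE, limma adjusted p = 0.00599), and 0.38 after quantile normalization (limma adjusted p = 0.236). Set to the same sum, mitochondrial ribosomal RNA included, it was -0.11, on the other side of 0.

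For Arpc5 and Arpc5l, and for Arpc1b and Arpc1a, pairs of alternative genes, the more abundant gene showed the larger difference. Arpc5 was at 69.8, 97 and 63.3 FPKM in BMDM and 11.1, 11.5 and 8.45 in BSM, and its log2 fold change was 2.76 ± 0.26 (SE, limma adjusted p = 0.00011). Arpc5l, its alternative, was at 4.76, 4.56 and 7.33 FPKM in BMDM and 1.06, 4.08 and 3.89 in BSM, with the highest BSM library just under the lowest BMDM library. Its difference of 0.79 ± 0.39 (SE, limma adjusted p = 0.119) did not pass with all libraries weighted alike and passed with library quality weights (0.57, limma adjusted p = 0.0186), and it was -0.03 after quantile normalization. Arpc1a, the alternative to Arpc1b, was low in both, at 3.34, 4.85 and 3.09 FPKM in BMDM and 1.102, 1.76 and 1.39 in BSM. Its call (0.97 ± 0.26 SE, limma adjusted p = 0.0159) was lost after quantile normalization (limma adjusted p = 0.596) and without BSM replicate 3. Arpc4, with 15.2, 25.2 and 13.4 FPKM in BMDM and 12.6, 4.35 and 2.402 in BSM, passed at 1.54 ± 0.50 (SE, limma adjusted p = 0.0327) but was lost on leaving out any single library other than BSM replicate 1. Arpc3 was at 15.3, 19.9 and 17.3 FPKM in BMDM and 27.5, 7.26 and 7.32 in BSM, where replicate 1 lay above all BMDM libraries, and it passed without that library or with library quality weights. Actr3b, a copy of Actr3 used in neurons, did not exceed 0.0357 FPKM. After quantile normalization Arpc1b, Arpc2, Arpc5 and Actr3 kept their calls. The longest transcripts of Actr3 and Arpc1b are covered to 91.5% and 70.2% by near-identical stretches of other annotated genes, so their levels depend on how reads were shared out. Pdap1 on the other strand overlaps 18.2% of Arpc1b and was at 30.7, 47.2 and 38.2 FPKM in BMDM and 2.33, 12.5 and 10.03 in BSM. The part of Pdap1 reads was not tested.

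Of the 4 WASP and WAVE members, which activate Arp2/3, 2 were tested, and 1 of them, Was, was higher in BMDM (background 45.3%). Wasf2, the WAVE protein of most cells, was at 38.1, 34.02 and 38.2 FPKM in BMDM and 37.96, 32.3 and 27.4 in BSM. The ranges overlapped, and the log2 fold change of 0.18 ± 0.22 (SE, limma adjusted p = 0.505) did not pass. It was -0.61 after quantile normalization, on the other side of 0. Was, the WASP protein of blood cells, was lower in level, at 3.601, 4.15 and 4.36 FPKM in BMDM and 0.781, 1.56 and 1.54 in BSM. BMDM was higher in every library (1.15 ± 0.26 SE, limma adjusted p = 0.00719), and the call was lost after quantile normalization (0.33, limma adjusted p = 0.209). Wasf1 and Wasf3, known from the nervous system, stayed at or below 0.0259 FPKM. Wasf2 therefore supplied 90.1 ± 1.15% of the FPKM of these members in BMDM and 95.99 ± 1.74% in BSM. Wasl, a WASP gene that the name stems leave out, is not in these shares. It was at 1.55, 1.28 and 2.04 FPKM in BMDM and 0.42, 2.05 and 3.26 in BSM. Its difference of -0.02 ± 0.42 (SE, limma adjusted p = 0.969) did not pass. After quantile normalization Wasl was called higher in BSM (-0.91, limma adjusted p = 0.0442). By ALEXA-Seq the share of Wasf2 was lower, 63.1 ± 0.531% and 80.2 ± 2.18%, and that of Was was 36.8 ± 0.576% and 19.6 ± 2.205%.

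Formins differed in both directions, with 3 of the 6 called toward BMDM (background 45.3%) and 2 toward BSM (background 9.22%). Their FPKM summed to 57.98 ± 7.37 in BMDM and 38.5 ± 1.44 in BSM, again not scaled for the higher sum over all genes in BMDM. Diap1, the mDia1 formin, was at 8.45, 16.1 and 11.4 FPKM in BMDM and 0.374, 0.532 and 0.677 in BSM. No BSM library reached 1 FPKM, and the log2 fold change was 3.05 ± 0.28 (SE, limma adjusted p = 0.00011). Diap3, a formin of dividing cells, was at 3.48, 4.45 and 4.87 FPKM in BMDM and 0, 0.0555 and 0.128 in BSM, with 2.30 ± 0.27 (SE, limma adjusted p = 0.00033). Fmnl1, the formin of leukocytes, was present in both, at 13.4, 25.1 and 16.8 FPKM in BMDM and 8.92, 4.28 and 5.01 in BSM, and its difference of 1.47 ± 0.34 (SE, limma adjusted p = 0.00791) fell to 0.77 after quantile normalization (limma adjusted p = 0.0828).

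Its relatives Fmnl2 and Fmnl3, which act in filopodia and lamellipodia of many cell types, went the other way. Fmnl2 was at 2.54, 3.69 and 3.29 FPKM in BMDM and 14.5, 13.6 and 10.7 in BSM (chr2:52716894-52993236, mm9). Every BSM library was well above every BMDM library, with a log2 fold change of -1.74 ± 0.24 (SE, limma adjusted p = 0.00077). Fmnl3 was at 0.311, 1.38 and 1.09 FPKM in BMDM and 3.76, 8.29 and 6.38 in BSM (chr15:99147656-99200913, mm9), again without overlap, and its log2 fold change was -1.88 ± 0.35 (SE, limma adjusted p = 0.00319). After quantile normalization both differences grew, to -2.54 and -2.64. Together Fmnl2 and Fmnl3 made up 6.98 ± 1.14% of formin FPKM in BMDM and 49.5 ± 5.34% in BSM, while Diap1 and Diap3 went from 27.7 ± 4.01% to 1.52 ± 0.5399%. Diap2 took a like share of both, 34.01 ± 11.4% and 33.1 ± 7.46%, and its difference (0.55 ± 0.29 SE, limma adjusted p = 0.136) did not pass, passed with library quality weights (0.55, limma adjusted p = 0.01197) and turned to -0.22 after quantile normalization. By ALEXA-Seq, the second processing of the libraries, Fmnl2 and Fmnl3 made up 5.28 ± 0.388% of the group in BMDM and 52.8 ± 4.02% in BSM.

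Capping protein is a dimer of an alpha and a beta subunit, and the subunits differed unequally. Capza2, an alpha subunit, was at 61.7, 74.3 and 70.4 FPKM in BMDM and 58.2, 65.03 and 67.02 in BSM. The ranges overlapped and the log2 fold change of 0.11 ± 0.20 (SE, limma adjusted p = 0.655) did not pass, but after quantile normalization Capza2 was called higher in BSM (-0.64, limma adjusted p = 0.0353). Capzb, the beta subunit, was at 48.1, 55.1 and 52.4 FPKM in BMDM and 16.1, 16.4 and 11.2 in BSM, with no overlap and a log2 fold change of 1.78 ± 0.23 (SE, limma adjusted p = 0.00062) that remained 1.02 after quantile normalization (limma adjusted p = 0.00779). Capza1, the other alpha subunit, was at 4.62, 3.87 and 4.25 FPKM in BMDM and 1.04, 1.52 and 2.14 in BSM (1.05 ± 0.26 SE, limma adjusted p = 0.0104). The share of Capza2 in the summed FPKM of the group was 55.04 ± 0.972% in BMDM and 79.7 ± 3.25% in BSM, and that of Capzb 41.5 ± 0.431% and 18.4 ± 3.899%. By ALEXA-Seq the share of Capza2 was 23.3 ± 0.5101% and 56.3 ± 3.29%. Near-identical genes cover 93.0% of the Capza1 transcript, so its low FPKM is uncertain.

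All 5 tested coronins were higher in BMDM (background 45.3%). Coro1a, the coronin of leukocytes, was at 12.8, 15.9 and 13.8 FPKM in BMDM and 2.75, 2.53 and 1.59 in BSM, a log2 fold change of 2.22 ± 0.25 (SE, limma adjusted p = 0.00026). Coro1c, a widely expressed relative, was at 11.1, 15.3 and 14.2 FPKM in BMDM and 3.45, 3.29 and 2.91 in BSM, with 1.78 ± 0.23 (SE, limma adjusted p = 0.00056). Both sets of values were far apart, and both calls were kept after quantile normalization (1.51 and 1.06). Coro1b, which replaces Arp2/3 at branches, was at 3.61, 6.03 and 4.63 FPKM in BMDM and 0.0905, 1.903 and 1.44 in BSM, where replicate 1 was near 0. Its call, 1.52 ± 0.40 (SE, limma adjusted p = 0.0145), and those of Coro2a (1.54) and Coro7 (1.22), a coronin of the Golgi, were lost after quantile normalization. Coro1b was also lost without BMDM replicate 2 or 3. Coro2b and Coro6 stayed at or under 0.102 FPKM.

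The monomer binding and severing genes held the most abundant members and the largest single difference. Tmsb4x, the main thymosin of blood cells, was the highest member in 5 of the 6 libraries, at 432, 407 and 461 FPKM in BMDM and 69.3, 165 and 175 in BSM. BMDM lay above BSM throughout (1.77 ± 0.36 SE, limma adjusted p = 0.00451), and the difference was 1.06 after quantile normalization (limma adjusted p = 0.0552). Tmsb10, a second thymosin, was at 32.6, 42.6 and 36.1 FPKM in BMDM and 0.0761, 0.556 and 0.563 in BSM (chr6:72907341-72908742, mm9). No BSM library reached 1 FPKM, and the log2 fold change was 4.78 ± 0.25 (SE, limma adjusted p = 7.7e-06), or 3.93 after quantile normalization. Near-identical genes cover 59.9% of its transcript.

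Pfn1, the profilin of most cells, was at 212, 387 and 243 FPKM in BMDM and 71.8, 44.6 and 33.2 in BSM, with 2.49 ± 0.35 (SE, limma adjusted p = 0.00084). Cfl1, the cofilin of non-muscle cells, was at 66.4, 112 and 86.5 FPKM in BMDM and 5.01, 10.1 and 10.5 in BSM. Both genes were without overlap, and the difference of Cfl1 was 3.25 ± 0.33 (SE, limma adjusted p = 0.00018). Cfl2, known from muscle, was at 4.76, 10.2 and 4.18 FPKM in BMDM and 0.306, 5.46 and 5.62 in BSM, so that BSM replicates 2 and 3 lay inside the BMDM range and replicate 1 below it. Its difference (0.86 ± 0.64 SE, limma adjusted p = 0.284) did not pass and was -0.06 after quantile normalization. Pfn2, the profilin of neurons, was not tested. It was at 0.785, 0.288 and 0.688 FPKM in BMDM and 2.14, 1.002 and 1.15 in BSM, higher in each BSM library.

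Of the 3 tested tropomyosins, Tpm4 was higher in BMDM and Tpm3 and Tpm1 did not pass. Tpm4 was at 58.2, 65.8 and 63.4 FPKM in BMDM and 11.6, 5.16 and 4.26 in BSM, with the highest BSM value in replicate 1 and no overlap, and its log2 fold change was 3.10 ± 0.34 (SE, limma adjusted p = 0.00026). Tpm3 was at 38.7, 63.9 and 47.1 FPKM in BMDM and 39.8, 44.2 and 36.1 in BSM, with overlapping ranges and a difference of 0.29 ± 0.25 (SE, limma adjusted p = 0.357) that did not pass and was -0.50 after quantile normalization. Tpm1 was at 7.37, 13.5 and 9.83 FPKM in BMDM and 1.15, 5.56 and 6.01 in BSM. It missed the threshold (1.24 ± 0.48 SE, limma adjusted p = 0.0562) although the groups did not overlap, and passed without BSM replicate 2 or 3 and with library quality weights (0.68, limma adjusted p = 0.00856). Of all tropomyosin FPKM, Tpm4 supplied 51.4 ± 5.03% in BMDM and 13.4 ± 7.25% in BSM, and Tpm3 40.3 ± 3.89% and 77.2 ± 2.22%. By ALEXA-Seq Tpm4 was the larger part in both, with 91.3 ± 1.86% in BMDM and 58.9 ± 12.4% in BSM, and Tpm3 took 7.805 ± 1.69% and 36.3 ± 9.49%. Tpm2, a tropomyosin of muscle, stayed at or below 0.795 FPKM.

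Of the 25 unconventional myosins 10 were tested, 5 higher in BMDM (background 45.3%) and 2 in BSM (background 9.22%). Myo1g, a short tailed myosin of blood cells that links the membrane to actin, was at 23.7, 40.9 and 35.5 FPKM in BMDM and 2.94, 1.52 and 1.67 in BSM. The lowest BMDM value was far above the highest BSM value, and the log2 fold change was 3.49 ± 0.30 (SE, limma adjusted p = 7.2e-05). Its relative Myo1f, also of blood cells, was at 13.8, 23.1 and 17.5 FPKM in BMDM and 1.505, 3.403 and 3.23 in BSM, with 2.38 ± 0.31 (SE, limma adjusted p = 0.00062). Myo5a, which carries vesicles and pigment granules, was at 21.2, 16.2 and 25.5 FPKM in BMDM and 2.68, 1.84 and 2.02 in BSM, with 2.78 ± 0.26 (SE, limma adjusted p = 0.00011). All 3 kept their call after quantile normalization, with differences of 2.79, 1.60 and 2.07.

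Myo1e, a class I myosin of wide expression that acts at membranes and in endocytosis, was near 0 in BMDM. Myo1e was at 0.0573, 0.0321 and 0.0738 FPKM in BMDM and 3.78, 2.297 and 3.14 in BSM (chr9:70055157-70247874, mm9), with -1.93 ± 0.29 (SE, limma adjusted p = 0.00117). The cell types were apart in all libraries, and the difference grew to -2.28 after quantile normalization. Myo9a, a myosin with a GTPase activating domain, was at 6.798, 4.802 and 10.7 FPKM in BMDM and 11.8, 6.48 and 7.59 in BSM, overlapping, with -0.21 ± 0.34 (SE, limma adjusted p = 0.616). Its relative Myo9b was at 2.31, 4.63 and 2.704 FPKM in BMDM and 1.86, 1.21 and 0.767 in BSM, a difference of 0.88 ± 0.32 (SE, limma adjusted p = 0.0475) that was lost after quantile normalization, on leaving out any single library other than BSM replicate 1, and in the ALEXA-Seq table. Myo1f, Myo1g and Myo5a together made up 75.96 ± 0.462% of unconventional myosin FPKM in BMDM and 18.1 ± 1.57% in BSM. Myo1e and Myo9a made up 7.97 ± 3.03% and 30.02 ± 5.97%. Myo1c (0.50) and Myo18a (-0.09) did not pass, although Myo1c did without BSM replicate 1 and with library quality weights. Myo1h was called higher in BMDM (2.25), but 25.8% of its transcript overlaps Kctd10 on the other strand, which was at 28.2, 43.1 and 28.5 FPKM in BMDM and 0, 10.3 and 3.15 in BSM, and the part of Kctd10 reads was not tested.

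Only Myl12b was tested among the 10 myosin light chains. This regulatory light chain of non-muscle myosin was at 18.9, 28.8 and 23.4 FPKM in BMDM and 2.49, 6.57 and 4.57 in BSM, without overlap, and its difference of 2.21 ± 0.33 (SE, limma adjusted p = 0.00118) was kept after quantile normalization (1.44, limma adjusted p = 0.00572). The row that carries the symbol Myl6, the essential light chain of the same motor, lies at chr14:56039106-56039561 (mm9) and spans 456 bases, whereas the annotated gene is on chromosome 10, so it gives no value for that gene. The rows of the other 85 members lie on the chromosome of the annotated gene. Among the actin-related proteins outside Arp2/3, Actr1a and Actr10 were both tested and both higher in BMDM (background 45.3%). They are parts of the dynactin complex that works with dynein, and both reached 3 FPKM only in BMDM. Of all genes that did so, 74.8% were called toward BMDM. Actr1a was at 2.63, 4.93 and 4.01 FPKM in BMDM and 1.06, 1.24 and 1.23 in BSM (1.13 ± 0.27 SE, limma adjusted p = 0.00955). Actr10 differed by 0.96, and neither call was kept after quantile normalization. Actr8, a subunit of a chromatin remodelling complex in the nucleus, was not tested, at 1.27, 2.77 and 2.71 FPKM in BMDM and 2.501, 1.801 and 1.55 in BSM, overlapping.

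**Figure D3:**
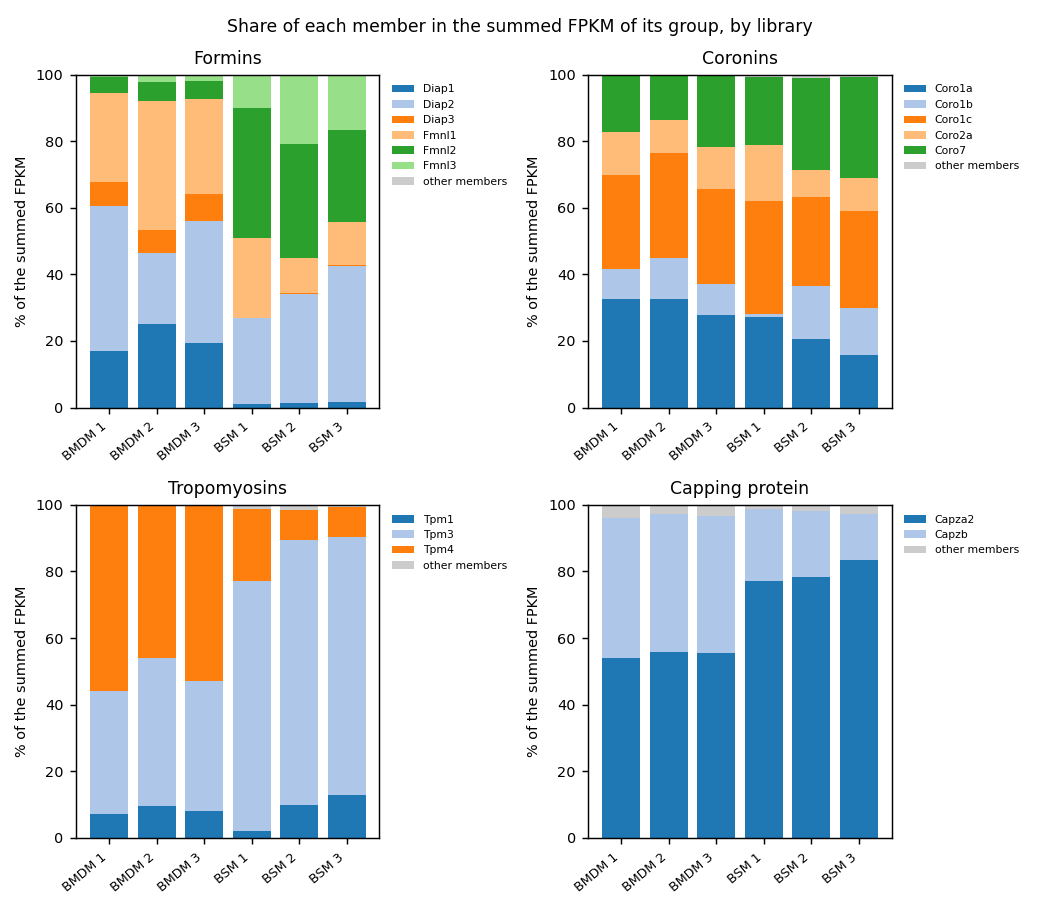
Make-up of 4 role groups in each library, as the percentage of the group's summed FPKM, with members that never reach 5% drawn together in grey. Fmnl2 and Fmnl3 fill 49.5% of formin FPKM in BSM and 6.98% in BMDM, and Tpm3 takes 77.2% of tropomyosin FPKM in BSM against 40.3% in BMDM, where ALEXA-Seq gives 36.3% and 7.805%.

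Ratios of related members within a library depend little on how the library is scaled, the added 1 apart, and were computed for 21 pairs. The cell types did not overlap for 17 of them, 2 with the ratio higher in BMDM and 15 with it higher in BSM. The direction of a ratio follows from which gene was put first, so the split by direction, here and below, is no result about the members. The share of pairs apart among other genes was not computed. With 3 libraries against 3 the exact two-sided permutation test cannot go below p = 0.1, the value each of these reached. In 5 of the 21 pairs 1 gene or both never reached 1 FPKM, so that the ratio mostly followed the partner or the added 1, among them Myl6b to Myl6, which rests on the misplaced Myl6 row. Of the other 16, 14 were apart, 2 higher in BMDM and 12 in BSM, and 13 of these were also apart in the same direction in the ALEXA-Seq table. Among the 16, Myo1e and Pfn2 stayed under 1 FPKM in all BMDM libraries, and Tmsb10 and Diap1 in all BSM libraries. In their pairs the added 1 bears on the size of the shift.

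The log2 ratio of Fmnl2 to Fmnl1 was -2.02, -2.47 and -2.05 in BMDM and 0.64, 1.47 and 0.96 in BSM. It changed sign between the cell types, so that Fmnl1 was the higher of the pair in every BMDM library and Fmnl2 in every BSM library. That of Tpm3 to Tpm4 was -0.58, -0.04 and -0.42 in BMDM and 1.70, 2.88 and 2.82 in BSM. Here too the order of the 2 genes turned by FPKM. That of Cfl2 to Cfl1 was -3.55, -3.34 and -4.08 in BMDM and -2.20, -0.78 and -0.80 in BSM, with Cfl1 higher in all libraries and the gap smaller in BSM. The largest shifts toward BSM were those of Myo1e to Myo1f (-4.31, and -7.48 by ALEXA-Seq), Fmnl3 to Fmnl1 (-3.35) and Fmnl2 to Fmnl1 (-3.21). The shift toward BMDM was 3.01 for Tmsb10 to Tmsb4x (5.845 by ALEXA-Seq) and 1.11 for Myo1g to Myo1f. In the latter BSM replicate 1 (0.65) lay close to the lowest BMDM library (0.74). By ALEXA-Seq this pair overlapped, since BSM replicate 1 (-0.15) lay above all BMDM libraries. Coro1b to Coro1a and Tpm1 to Tpm4 overlapped, and both were apart without BSM replicate 1.

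**Figure D4:**
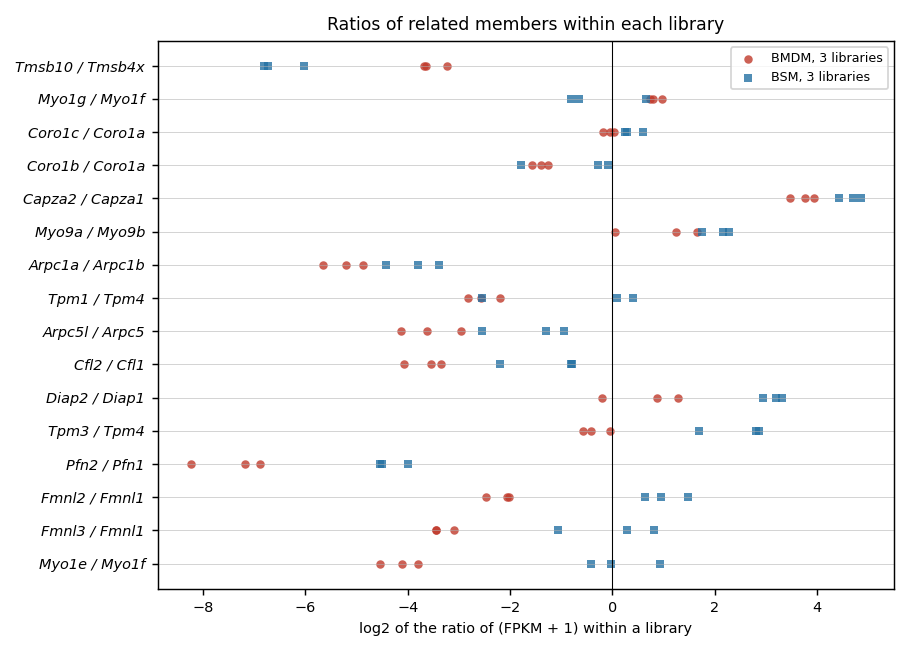
Log2 ratios of (FPKM + 1) of related members within each library, for the 16 pairs in which both genes reach 1 FPKM in at least 1 library. Circles are BMDM libraries and squares BSM libraries, and pairs are ordered by the difference between the cell types, from 3.01 for Tmsb10 to Tmsb4x to -4.31 for Myo1e to Myo1f.

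The ALEXA-Seq table is a second processing of the same 6 libraries and so no independent replicate. It gave 33 calls among the 47 members tested in it (background 47.9%), 29 higher in BMDM (background 37.1%) and 4 higher in BSM (background 10.9%). Of the 44 members tested in both tables, 28 (63.6%) were called toward BMDM in both and 4 (9.09%) toward BSM in both, against 39% and 9.31% of the 5015 genes tested in both. The 4 again included Fmnl2 (-2.17), Fmnl3 (-2.92) and Myo1e (-4.96). The unit of this table is not given in the sources used here, and its values are larger, so the added 1 weighs less on low genes. Tmsb10 differed by 7.42 in it (limma adjusted p = 4.3e-05), Diap3 by 5.64 and Diap1 by 4.04, all more than on the FPKM scale. Tpm3 passed in it (0.75, limma adjusted p = 0.0435), and Arpc4 (1.10, limma adjusted p = 0.111) did not.

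The tables disagreed on the level of some members. Over 5348 tested genes the ALEXA-Seq value per FPKM in BMDM had a median of 12.6, with 90% of genes between 3.71 and 26.4. It was 181 for Tmsb10, 105 for Capza1 and 72.8 for Tpm4. As a result Tmsb10 was below Tmsb4x in BMDM by FPKM but above it by ALEXA-Seq, with 5778, 8427 and 5935 for Tmsb10 and 5103, 5213 and 5045 for Tmsb4x. Capza1, far below Capza2 by FPKM, was above it in BMDM by ALEXA-Seq, with 418, 467 and 449.7 against 306, 362 and 343. Tpm3 was below Tpm4 in every library by ALEXA-Seq, with log2 ratios of -3.84, -3.20 and -3.66 in BMDM and -1.50, -0.45 and -0.18 in BSM, so the turned order of this pair in BSM was seen by FPKM and not by ALEXA-Seq, while the shift of the ratio (-2.85) was in both. The direction of change between the cell types was the same in both tables for each of these genes other than Capza2, whose difference was 0.11 by FPKM and -0.25 by ALEXA-Seq, neither past the threshold.

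**Figure D5:**
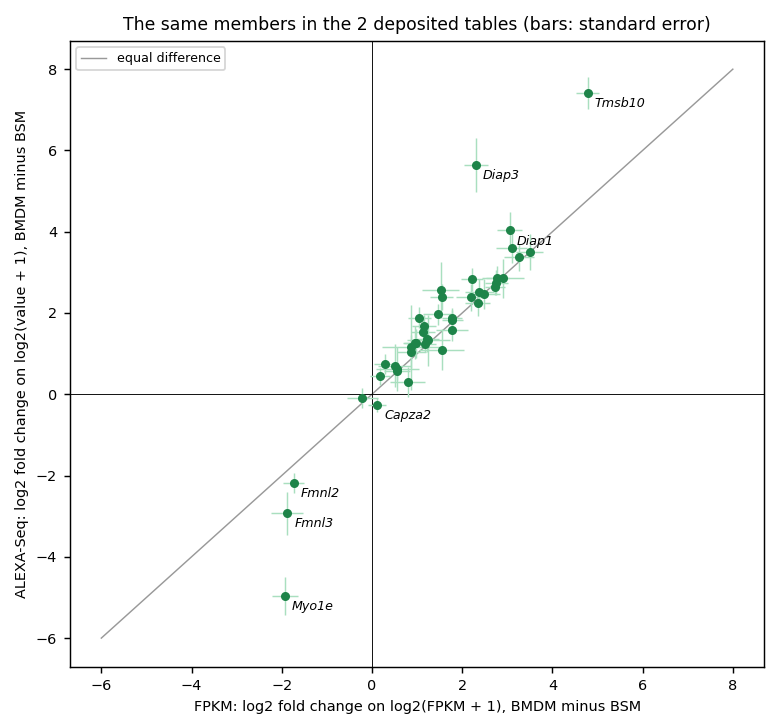
Log2 fold change (BMDM minus BSM, ± SE) of 43 of the 44 members tested in both tables, by FPKM on the horizontal and by ALEXA-Seq on the vertical axis, with the line of equal difference. The points of Tmsb10 (4.78 and 7.42), Diap3 (2.30 and 5.64) and Myo1e (-1.93 and -4.96) lie farther from 0 by ALEXA-Seq.

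Other genes of the actin pathway, taken as a list of 54 of which 53 were in the table, are given by their counts. Of 43 tested, BMDM was higher for 28 and BSM for 5 (background 45.3% and 9.22%), with a median log2 fold change of 1.38. After quantile normalization the numbers were 17 and 9 (background 21.7% and 19.3%). Lsp1, an actin binding protein of leukocytes, was at 76.03, 155 and 83.7 FPKM in BMDM and 0.819, 1.86 and 2.29 in BSM (5.29 ± 0.36 SE, limma adjusted p = 2.5e-05). Iqgap1, a scaffold that binds actin and Cdc42, was at 27.1, 32.4 and 32.8 FPKM in BMDM and 0, 0.243 and 0.261 in BSM (4.77 ± 0.23 SE, limma adjusted p = 4.9e-06). Both were far apart, as was Flna, the filamin that crosslinks filaments (4.40 ± 0.25 SE, limma adjusted p = 9.6e-06). Actb, the filament's own beta actin, was at 197, 339.5 and 214 FPKM in BMDM and 52.7, 47.6 and 48.6 in BSM (2.27 ± 0.26 SE, limma adjusted p = 0.00029), whereas gamma actin, Actg1, overlapped (0.74 ± 0.39 SE, limma adjusted p = 0.137).

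The 5 genes of this list higher in BSM were Marcks, Fscn1, Abi3, Cyfip1 and Ssh2. Marcks, a membrane protein that binds actin and calmodulin, was at 12.6, 10.1 and 12.6 FPKM in BMDM and 186, 204 and 195 in BSM (-3.94 ± 0.21 SE, limma adjusted p = 7.5e-06). Fscn1, the fascin that bundles filaments in filopodia, was at 0, 0 and 0.01903 FPKM in BMDM and 4.46, 5.51 and 4.84 in BSM (-2.56 ± 0.25 SE, limma adjusted p = 0.00015). Both sets were without overlap. Abi3 and Cyfip1 are parts of the complex that holds WAVE proteins, such as Wasf2, and Ssh2 is a phosphatase that activates cofilin. Their differences were -2.50, -1.39 and -0.83. Other parts of the WAVE complex on the list did not go the same way. Abi1 (0.86 ± 0.20 SE, limma adjusted p = 0.00878) and Cyfip2 (2.05 ± 0.34 SE, limma adjusted p = 0.0018) were higher in BMDM. Nckap1l (-0.17 ± 0.23 SE, limma adjusted p = 0.563) did not pass. After quantile normalization Cyfip2 kept its call (1.56), Abi1 lost it (0.07) and Nckap1l was called higher in BSM (-0.93).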

How the data were processed

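RNA-Seq libraries of 3 BMDM and 3 BSM sets were analysed. Per the submitters' processing notes the authors used CASAVA 1.7.0, TopHat 1.3.1, Bowtie 0.12.7 and Cufflinks 1.0.3 on genome build mm9, and the supplementary methods mention removal of ribosomal reads. The authors deposited FPKM per gene from Cufflinks and an expression signal per gene from ALEXA-Seq, whose unit and normalization are not given in the sources used here. Neither table holds counts. The study lists mapped reads per library, but the number of reads behind each value was not worked out. No floor was set, and the number of libraries limits the precision. Reads were not counted by strand as far as the sources say, so overlapping genes cannot be told apart. Starts in the files are counted from 0, since 7538 of 17762 genes then have the span of GENCODE M21, against 265 otherwise, and are printed counted from 1.

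log2(FPKM + 1) was compared with limma 3.58.1 in R 4.3.3 (mean-variance trend) over the 6364 genes with at least 3 FPKM in at least 1 library, with Benjamini-Hochberg adjustment over all of them. As many ALEXA-Seq entries, taken by their highest value, were tested likewise. Simulated data with known changes were used to test the fit. Ratios used an exact permutation test. The labels do not say that replicates of the same number in both cell types are paired, so no block was used in the main fit. A check of this and a fit with a block are in the closing section. Values are given for the most abundant member of each cell type and the largest change in each direction in each role group, and for preset pairs of related genes (Myl12b to Myl12a could not be computed). Others named at a call, a lost call or a changed sign were chosen after their values were seen. The members, lists and pairs were chosen with earlier results of these data known. Copies are blastn 2.17.0 matches of at least 100 bases at 95% identity between GENCODE M21 transcripts. Alternatives were other scalings, filters and pseudocounts, library weights, no trend, a replicate block and each library left out. P-values measure the spread between these pools. Values of 1 tested member are not reported here. Single results were not flagged as outliers, since groups of 3 are too small for that rule.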

Additional observations from a re-analysis of the deposited data

How the results depend on the processing

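Each result was recomputed under the alternatives, and no member called in the report was called in the other direction under any of them. The scale mattered most. The 35 calls became 23 after quantile normalization, with 18 higher in BMDM. There were 19 higher in BMDM after upper quartile scaling. When all libraries were set to the same sum, mitochondrial ribosomal RNA included, 17 were higher in BMDM and 9 in BSM. There Capza2, Myo18a, Myo9a, Tpm3 and Wasf2 joined the 4 higher in BSM. The members' median log2 fold change of 1.36 became 0.59 (quantile), 0.63 (upper quartile) and 0.26 (same sum), 1.15 with a minimum of 1 FPKM, 0.50 with no minimum and 1.62 with a pseudocount of 0.1. Fmnl2, Fmnl3 and Myo1e stayed higher in BSM under all alternatives run. Of the members that changed sign under another scaling, Actr2 had been called (1.17), and it was -0.11 at the same sum and not called there. The others had not passed. They were Arpc5l (-0.0296), Capza2 (-0.64), Cfl2 (-0.0601), Diap2 (-0.22), Tpm3 (-0.50) and Wasf2 (-0.61) after quantile normalization, Arpc5l (-0.23), Capza2 (-1.18), Cfl2 (-0.12), Diap2 (-0.68), Tpm3 (-1.0025) and Wasf2 (-1.10) at the same sum, and Capza2 (-0.73), Diap2 (-0.25), Tpm3 (-0.55) and Wasf2 (-0.65) after upper quartile scaling. Cfl2 (-0.14) and Myo9a (0.32) changed sign with library quality weights and Capza2 (-0.25) in the ALEXA-Seq table. Arpc3 and Myo1c were below 0 after quantile normalization (-0.18 and -0.22), upper quartile scaling (-0.24 and -0.12) and at the same sum (-0.67 and -0.45). Myo18a, at -0.09 with all libraries, was above 0 without BMDM replicate 1 or 3 or BSM replicate 1 or 2. Library quality weights gave 40 calls, 36 higher in BMDM, adding Arpc3, Arpc5l, Diap2, Myo1c and Tpm1. For these weights, as for libraries left out, the share of all genes called is not given here. Myo9a, at -0.21 with all libraries, ran from -0.4786 without BMDM replicate 3 to 0.0295 without BMDM replicate 2, and was 0.01 without BSM replicate 1.

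Leaving out 1 library at a time gave 31 to 37 calls, 27 to 33 higher in BMDM, 4 to 4 higher in BSM, medians of 1.25 to 1.51, 27 to 38 calls by ALEXA-Seq and 17 to 21 pairs apart. In the pairing check, samples of the same number deviated together with correlations of -0.02, -0.01 and 0.13, and the numbers were not taken to pair them. With so few libraries the check cannot exclude a pairing. With the replicate number as a block 35 members were called, without Myo9b and with Tpm1. The reads behind single FPKM were not worked out, so the counting error of low values is not given. The cause of these changes was not tested.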

Other observations

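A light chain and a myosin outside the tests had values of their own. Myl2, the regulatory light chain of heart and slow muscle, was at 0.0232, 0 and 0.0362 FPKM in BMDM and 0.288, 1.598 and 1.57 in BSM, and at 0.06699, 0 and 0.291 and 1.73, 10.9 and 10.1 in the ALEXA-Seq table. It was higher in each BSM library in both tables. The marker lists held none for heart, and the part of other cells in these values was not tested. Myo6, the myosin that walks toward the pointed end of filaments, was at 0.0126, 0 and 0.0402 FPKM in BMDM and 0.514, 1.06 and 0.987 in BSM, again without overlap. These genes were picked after their values were seen and stayed under the minimum of 3 FPKM.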
